A study of Homo sapiens with 12 samples.

Results

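The HLA class II genes, their invariant chain and the regulators of their promoters were followed across PANC-1 cells with FOSL1 knockdown and H1299 cells with HDAC2 knockdown, each set against scramble cells of the same line. The set held 10 of the 60668 genes counted. It comprised CD74, HLA-DRA, HLA-DRB1, HLA-DPA1, HLA-DPB1, HLA-DMA, HLA-DMB, CIITA, RFX5 and RFXAP, found by gene symbol. The set was chosen because HLA-DRA and CD74 were higher in H1299 cells with HDAC2 knockdown than in scramble cells. The values of all members in H1299 are therefore given below as a description with no test, and tests of the members were run only in PANC-1.

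The study knocked down regulators in tumour cell lines and measured their total RNA by bulk RNA-seq. There were 4 groups of 3 libraries. PANC-1 shFOSL1 cells carried a FOSL1 short hairpin RNA and PANC-1 scramble cells a scrambled hairpin, PANC-1 being an established pancreatic carcinoma line. H1299 shHDAC2 cells carried an HDAC2 hairpin and H1299 scramble cells the scrambled hairpin, H1299 being an established line that the submitters label as lung adenocarcinoma. HDAC2 is a histone deacetylase and FOSL1 a subunit of the AP-1 transcription factor. The methods of the study describe lentiviral hairpin lines selected with puromycin and give no detail on the HDAC2 hairpin. The labels number a single hairpin per gene, so an effect of the hairpin apart from its target cannot be told apart from the knockdown. The libraries are labelled as biological replicates, but separate transductions are not described, so that p-values measure the spread between these libraries.

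HDAC2 had 1294, 1169 and 1491 counts in H1299 shHDAC2 libraries, against 3132, 3151 and 3695 in H1299 scramble libraries. FOSL1 had 2962, 2844 and 2939 counts in PANC-1 shFOSL1 libraries, against 4079, 4067 and 4639 in PANC-1 scramble libraries, a smaller reduction (log2 fold change −0.43 ± 0.06, SE, edgeR adjusted p = 2.88e-06). Total counts per library ranged from 16065723 to 19173421. Scramble replicate 1 of both lines was unlike the remaining scramble libraries. Chi-square values over genes, divided by degrees of freedom, were 6.79 to 10.6 for its pairs and 2.38 to 3.85 for all other pairs of replicates. Mitochondrial genes took 12.55 to 13.3% of counts in PANC-1 shFOSL1 libraries and 6.99 to 7.29% in PANC-1 scramble libraries, and their part in the PANC-1 results was not tested. As to the labels, NKX2-1, a lung lineage factor, had 31 to 53 counts in H1299 libraries and 2 to 12 in PANC-1 libraries. NAPSA, a lung adenocarcinoma marker, overlapped between the lines, at 14 to 21 counts in H1299 and 9 to 18 in PANC-1. The surfactant gene SFTPB had 0 to 2 counts in H1299 and 0 to 3 in PANC-1. PDX1, a pancreatic factor, had 35 to 47 counts in PANC-1 libraries and 0 to 5 in H1299 libraries. The acinar genes PTF1A and CPA1 had 0 to 1 in PANC-1 and 0 to 3 in H1299.

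HLA class II molecules are pairs of an alpha and a beta chain that show peptides from the endosomal route to CD4+ T cells. They are carried above all by professional antigen-presenting cells, and tumour cells of epithelial origin usually make them only when interferon gamma switches on CIITA. CIITA does not bind DNA itself. It docks on a complex of RFX5, RFXAP and RFXANK at the X box and of NF-Y at the Y box of these promoters, and recruits enzymes that acetylate histones. CD74, the invariant chain, plugs the groove of the new molecule on its way to the endosome, where HLA-DM exchanges the last fragment of it for a peptide.

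The genes lie in the MHC on chromosome 6 except for CD74 and the 3 regulators. In GRCh38 with the GENCODE 44 annotation, HLA-DRA lies at chr6:32439878-32445046 on the plus strand and HLA-DRB1 at chr6:32577902-32589848 on the minus strand. HLA-DMB lies at chr6:32934629-32941028 and HLA-DMA at chr6:32948613-32969094, both on the minus strand. HLA-DPA1 at chr6:33064569-33080775 on the minus strand and HLA-DPB1 at chr6:33075990-33089696 on the plus strand run head to head and overlap. CD74 lies at chr5:150401637-150412969 on the minus strand, CIITA at chr16:10866222-10943021 on the plus strand, RFX5 at chr1:151340640-151347326 on the minus strand and RFXAP at chr13:36819222-36829104 on the plus strand. All are protein-coding genes, and the counts are of reads in their exons, untranslated parts included.

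Matches to the X and Y boxes through which CIITA acts were sought in the reference sequence of these promoters, and not every window held both. RefSeq promoter windows (GRCh38.p14) were at hand for 8 of the 10 members in 11 windows, each from 250 bases before the start to 50 after it. HLA-DRA and CIITA had no window. The stretches below are shown because HLA-DRB1, HLA-DMA and HLA-DMB share a run of 10 bases. CD74, a leading member, is shown for a match to a loose form of the X box followed by a Y box core. They are read on the strand of the gene, and capitals mark the X box match or shared run first and the Y box core second (CCAAT, or ATTGG on the other strand).
HLA-DRB1 (chr6:32589882-32589938, minus strand): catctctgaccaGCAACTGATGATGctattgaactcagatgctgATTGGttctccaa
HLA-DMA (chr6:32953164-32953218, minus strand): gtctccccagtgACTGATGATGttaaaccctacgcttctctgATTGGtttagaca
HLA-DMB (chr6:32941038-32941127, minus strand): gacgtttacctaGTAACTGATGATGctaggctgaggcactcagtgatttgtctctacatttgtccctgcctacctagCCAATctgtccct
CD74 (chr5:150412951-150413002, minus strand): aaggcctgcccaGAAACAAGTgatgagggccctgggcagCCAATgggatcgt

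The shared run ACTGATGATG, picked out after the sequences were read, began 75 bases before the start in HLA-DRB1, 109 before it in HLA-DMA and 84 before it in HLA-DMB. It occurred on either strand in 30 of 35116 RefSeq promoter windows of the same length (0.0854%). The X box core GNAACNGAT, searched on both strands, was present in HLA-DRB1 and HLA-DMB and in 1.94% of all windows. It overlaps the shared run in both genes. Its looser form GNAACNNNT was present in 6 of the 11 member windows and in 30.0% of all windows, and includes every match to the core. HLA-DMA matched neither form, and CD74 only the looser one. The Y box core CCAAT was present in 6 of the 11 member windows and 34.6% of all windows, and the CRE-like core TGACG in 7 of the 11 and 24.6%. The capitals are separated by 19 bases in HLA-DRB1, 20 in HLA-DMA and 52 in HLA-DMB, counted from the end of the shared run. In CD74 they are separated by 18 bases, counted from the end of the looser X box match. That figure is not comparable with the others. The CCAAT shown in HLA-DMB is the only one in its window. Only exact matches were sought, and whether it is the Y box of HLA-DMB was not tested. All the matches given here are of letters in the reference and not measured binding, and no cell line sequence was read.

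**Figure D1:**
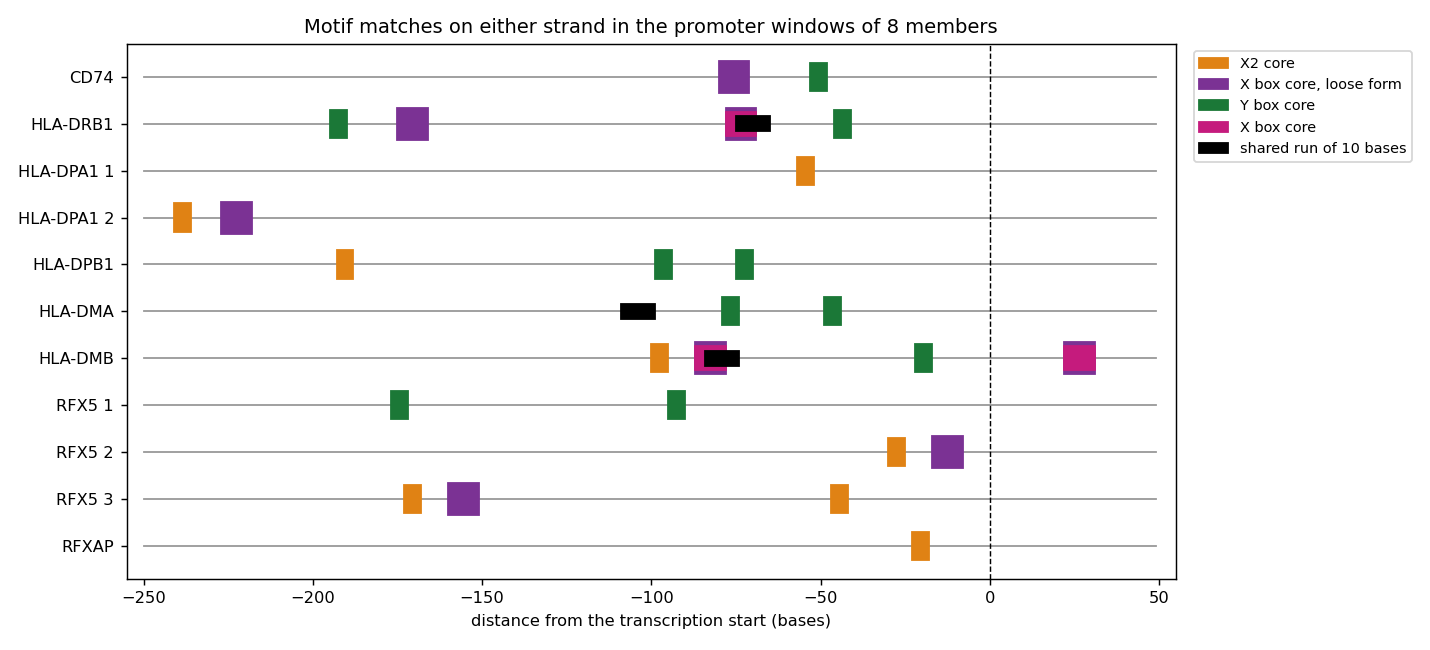
Matches to the X box core, its loose form, the Y box core, the CRE-like X2 core and the shared run of 10 bases in the RefSeq promoter windows of 8 members, by distance in bases from the transcription start (dashed line). Numbers after a gene name tell apart its alternative starts, and the shared run appears only in HLA-DRB1, HLA-DMA and HLA-DMB, 66 to 109 bases before the start.

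In H1299 cells, HLA-DRA, CD74, HLA-DRB1 and CIITA were higher in all 3 shHDAC2 libraries than in any scramble library, while the HLA-DP and HLA-DM genes and RFXAP overlapped between the groups. These are the values on which the set was chosen or that come from the same contrast. Of 10 members, 4 were higher and 1 lower in shHDAC2 libraries with CPM values that did not overlap. CPM are counts relative to the library total, after TMM scaling over the 12 libraries. Among the 16465 genes tested in H1299, 18.3% were higher and 18.7% lower in this way, and nothing is read from the comparison. HLA-DPB1 did not pass the filter on low counts, which the other 9 members passed. HLA-DRA, CD74 and HLA-DRB1 passed it through the shHDAC2 libraries, since their scramble counts were 10 or fewer.

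HLA-DRA, the only alpha chain of HLA-DR, had 18, 25 and 55 counts in H1299 shHDAC2 libraries, against 0, 1 and 2 in H1299 scramble libraries. It was near the floor of detection in scramble cells, and its knockdown libraries were uneven, with replicate 3 the highest (1.81 ± 0.957 CPM, SD, n = 3). Summed over libraries and scaled for depth, the ratio was 34.5 (95% counting interval 11.5 to 170.1, from 98 and 3 counts). The ratio was 66.8 without scramble replicate 3, 23.2 without scramble replicate 1 and 23.6 without shHDAC2 replicate 3, so its size is poorly set at this depth. HLA-DRB1, the beta chain that pairs with it, had 23, 33 and 30 counts in shHDAC2 libraries, against 4, 7 and 8 in scramble libraries. Its ratio was 4.78 (2.88 to 8.32), with groups well apart. HLA-DRB5, a near-identical beta chain carried by some haplotypes, had 8, 8 and 5 counts against 3, 0 and 1, and reads of such copies cannot be assigned with certainty.

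CD74, the invariant chain, had 57, 51 and 53 counts in H1299 shHDAC2 libraries, against 3, 9 and 10 in H1299 scramble libraries. The knockdown libraries lay close together and far above the scramble libraries, whose lowest value was that of the replicate that stood apart. The ratio was 7.73 (4.93 to 12.7), and 6.01 without scramble replicate 1. CIITA, the coactivator that switches the class II promoters on, had 40, 35 and 33 counts in shHDAC2 libraries, against 20, 20 and 19 in scramble libraries. Its ratio of 1.93 (1.40 to 2.702) was smaller than those of HLA-DRA, CD74 and HLA-DRB1, and stayed between 1.78 and 2.10 when any library was left out. Of the merged exon bases of CIITA, 21.6% overlap exons of other genes, DEXI on the opposite strand among them. DEXI had 95, 70 and 90 counts in shHDAC2 libraries, against 123, 106 and 101 in scramble libraries (log2 fold change −0.30, edgeR adjusted p = 0.204).

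The other class II chains in H1299 gave different values. HLA-DPA1, the alpha chain of HLA-DP, had 40, 25 and 38 counts in shHDAC2 libraries, against 43, 39 and 50 in scramble libraries. Its ratio was 0.824 (0.631 to 1.07), and the groups overlapped. HLA-DPB1, its beta chain, had no count in the 3 shHDAC2 libraries, against 0, 4 and 2 in scramble libraries. The groups overlapped, and no fold is given because 4 of the 6 scramble counts came from a single library. HLA-DMA had 69, 81 and 58 counts in shHDAC2 libraries, against 70, 72 and 70 in scramble libraries. HLA-DMB, which forms HLA-DM with it, had 45, 29 and 38 counts in shHDAC2 libraries, against 52, 53 and 32 in scramble libraries. The ratios were 1.04 (0.852 to 1.26) for HLA-DMA and 0.863 (0.666 to 1.116) for HLA-DMB, and both sets of groups overlapped.

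RFX5, the subunit through which the RFX complex binds DNA, had 1398, 1439 and 1697 counts in H1299 shHDAC2 libraries, against 1683, 1599 and 1808 in H1299 scramble libraries. On the CPM scale the groups did not overlap, at 85.7 ± 3.11 CPM in shHDAC2 cells and 91.2 ± 0.927 CPM in scramble cells (SD, n = 3 each), a ratio of only 0.941. RFXAP, the RFX-associated protein, had 113, 99 and 137 counts in shHDAC2 libraries, against 91, 107 and 121 in scramble libraries. Its groups overlapped, with a ratio of 1.16 (0.990 to 1.35). RNA of RFX5 and RFXAP was thus detected in scramble cells as well as in shHDAC2 cells. Counting intervals cover counting error only, and in bulk RNA fewer expressing cells and less RNA per cell cannot be told apart.

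**Figure D2:**
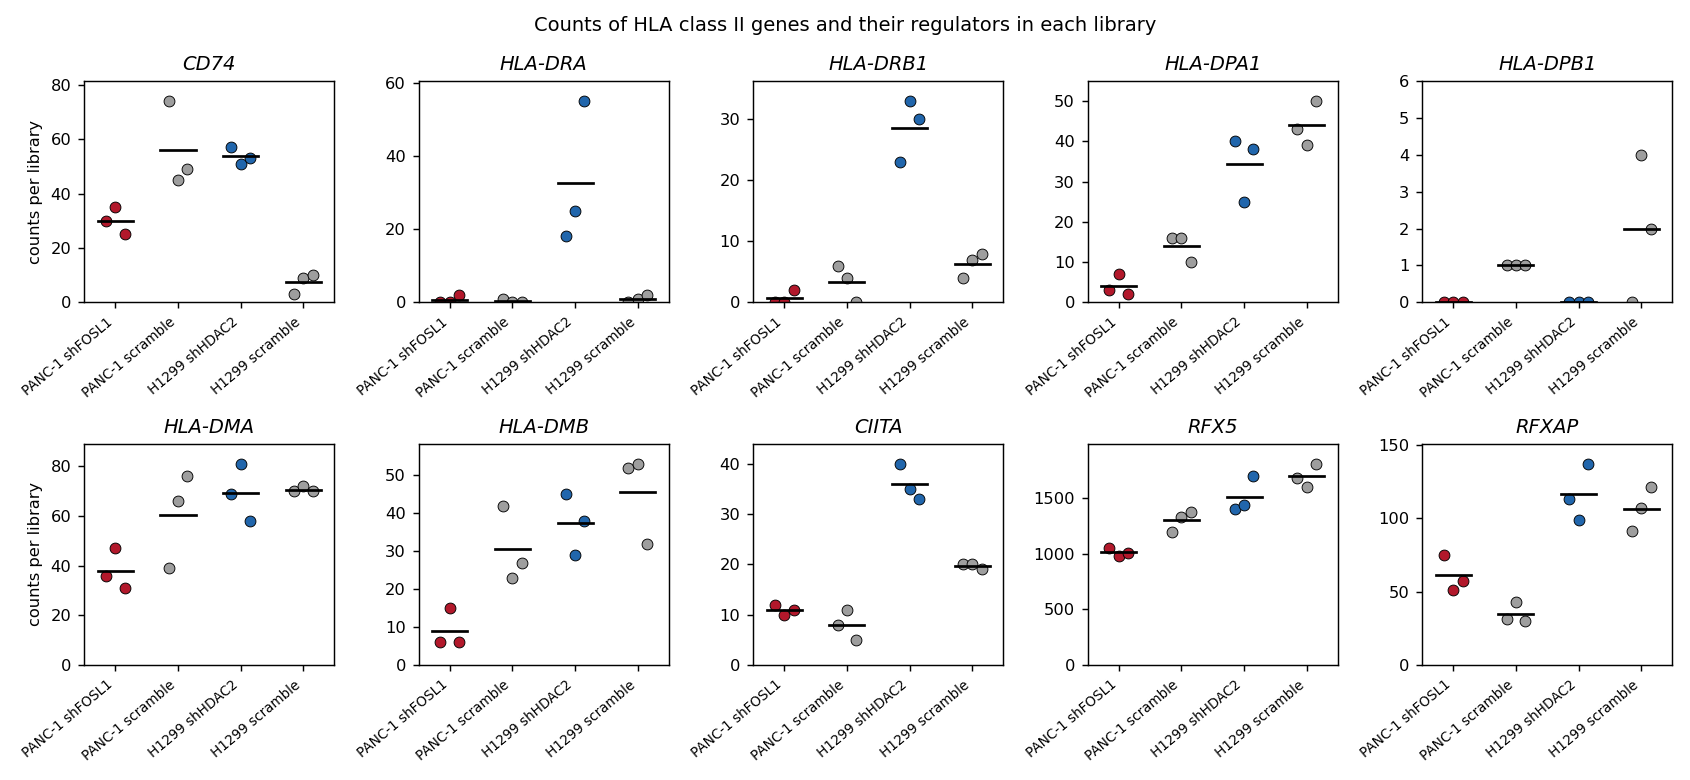
Counts per library of the 10 members in the 4 groups (points, 3 libraries each; black bars, group means; each panel has its own linear axis from 0). HLA-DRA reaches 18 to 55 counts in H1299 shHDAC2 libraries and at most 2 in every other library, while HLA-DMB and HLA-DPA1 are lowest in PANC-1 shFOSL1 libraries.

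The reason given for the set names only H1299 values, though the members were chosen with earlier results of these data known. In PANC-1 cells, HLA-DMB, CD74 and RFX5 fell and RFXAP rose with FOSL1 knockdown. These calls come from the edgeR quasi-likelihood test with Benjamini-Hochberg adjustment over all genes. HLA-DMA and CIITA did not pass the test. HLA-DRA, HLA-DRB1, HLA-DPA1 and HLA-DPB1 were below the filter on low counts and got no test. Of the 6 members tested, 1 was called higher and 3 lower, where 23.8% of the 16345 genes tested in PANC-1 were called higher and 27.1% lower. Among those called lower, HLA-DMB passed the filter through the scramble libraries, where it was higher. By non-overlap of CPM values, 2 of the 10 members were higher (CIITA and RFXAP) and 5 lower (CD74, HLA-DMB, HLA-DPA1, HLA-DPB1 and RFX5). The shares of the genes tested were 29.1% higher and 28.3% lower. With calls this frequent in PANC-1, these counts are not a result about the members.

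HLA-DMB had 6, 15 and 6 counts in PANC-1 shFOSL1 libraries, against 42, 23 and 27 in PANC-1 scramble libraries. Every shFOSL1 library lay below every scramble library. The log2 fold change was −1.64 ± 0.40 (SE, edgeR adjusted p = 0.00144), and the call was kept when any library was left out. The log2 fold change then ranged from −2.22, without shFOSL1 replicate 2, to −1.31, without scramble replicate 1. HLA-DMB passed the filter on low counts through the scramble libraries, where it was higher, and got no test when 10 counts were asked for in every library. HLA-DMA had 36, 47 and 31 counts in shFOSL1 libraries, against 39, 66 and 76 in scramble libraries. The low scramble value was that of replicate 1, which was the highest for HLA-DMB, and the groups overlapped. Its log2 fold change of −0.55 ± 0.25 (SE) did not pass the test (edgeR adjusted p = 0.0732), whereas without scramble replicate 1 it was −0.75 with an edgeR adjusted p of 0.0099, and without shFOSL1 replicate 2 it was −0.73 with 0.0465. HLA-DMA and HLA-DMB share 8.53 and 9.49% of their exon bases with other genes, a readthrough transcript among them that had no count in PANC-1. Reads shared by overlapping genes may be lost in counting, so the lack of counts gives no firm measure of that transcript.

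CD74 had 30, 35 and 25 counts in PANC-1 shFOSL1 libraries, against 74, 45 and 49 in PANC-1 scramble libraries. The groups did not overlap, with scramble replicate 1 the highest. The log2 fold change was −0.78 ± 0.26 (SE, edgeR adjusted p = 0.0135), a ratio of 0.589. The call was lost without scramble replicate 1 (log2 fold change −0.49, edgeR adjusted p = 0.146) and without shFOSL1 replicate 3 (−0.64, 0.0739). CD74 averaged 1.76 ± 0.325 CPM in PANC-1 shFOSL1 cells and 2.98 ± 0.868 CPM in PANC-1 scramble cells, beside 3.06 ± 0.315 CPM in H1299 shHDAC2 cells and 0.393 ± 0.198 CPM in H1299 scramble cells (SD, n = 3 each). The 2 knockdowns differ in target and line, and the difference between their effects was not tested.

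The HLA-DR and HLA-DP genes were barely detected in PANC-1. HLA-DRA had 0, 0 and 2 counts in shFOSL1 libraries, against 1, 0 and 0 in scramble libraries, and both groups are under the floor of 3 counts. HLA-DRB1 had 0, 0 and 2 counts in shFOSL1 libraries, against 6, 4 and 0 in scramble libraries, a ratio of 0.220 (0.0234 to 1.03). A difference in HLA-DR could not be shown at this depth. HLA-DPA1 had 3, 7 and 2 counts in shFOSL1 libraries, against 16, 16 and 10 in scramble libraries, with groups apart and a ratio of 0.314 (0.151 to 0.608), or 0.196 without shFOSL1 replicate 2. In the fit that kept every gene with at least 1 count it was called lower (log2 fold change −1.65, edgeR adjusted p = 0.0186). HLA-DPB1 had no count in shFOSL1 libraries and 1 in each scramble library.

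Among the regulators in PANC-1, CIITA had 12, 10 and 11 counts in shFOSL1 libraries, against 8, 11 and 5 in scramble libraries. It was low in all 6 libraries, and its log2 fold change of 0.57 ± 0.46 (SE) did not pass the test (edgeR adjusted p = 0.315). RFXAP had 75, 51 and 57 counts in shFOSL1 libraries, against 31, 43 and 30 in scramble libraries. All 3 shFOSL1 libraries were above the scramble libraries, and RFXAP rose by a log2 fold change of 0.93 ± 0.24 (SE, edgeR adjusted p = 0.00228). That call was kept with each library left out (log2 fold change 0.74 to 1.13). RFX5 had 1055, 984 and 1004 counts in shFOSL1 libraries, against 1192, 1327 and 1379 in scramble libraries. Its change was small (log2 fold change −0.24 ± 0.07, SE, edgeR adjusted p = 0.00884) and the call was lost without shFOSL1 replicate 2 (adjusted p = 0.0545), shFOSL1 replicate 3 (adjusted p = 0.0703) or scramble replicate 2 (adjusted p = 0.0604). Exons of RFX5 overlap those of lncRNAs on the opposite strand over 10.5% of their bases, and the strand setting of the counting is not given in the sources used here.

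**Figure D3:**
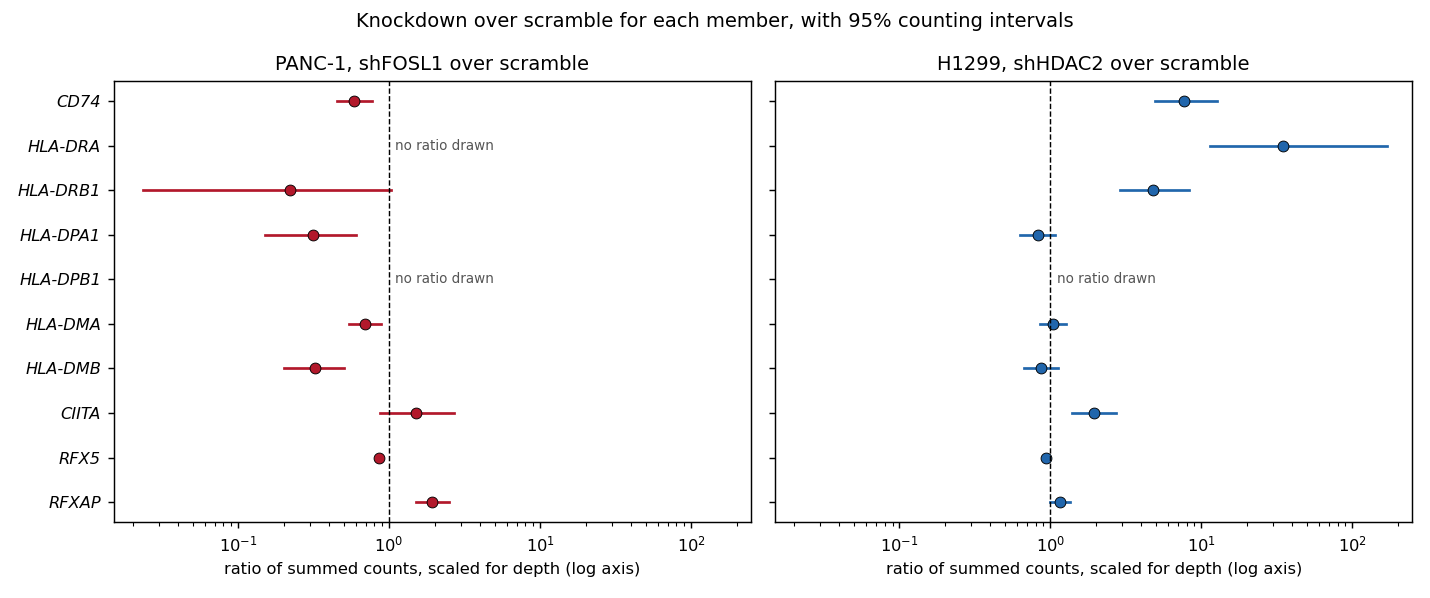
Ratio of summed counts in knockdown over scramble libraries, scaled for depth, for each member in PANC-1 (left) and H1299 (right), on a log axis; bars are 95% counting intervals and the dashed line marks a ratio of 1. HLA-DRA, CD74 and HLA-DRB1 stand at ratios of 34.5, 7.73 and 4.78 in H1299, and no ratio is drawn for HLA-DPB1, which had no count in the knockdown libraries, or for HLA-DRA in PANC-1, with 2 and 1 counts in all.

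Levels were compared between genes as CPM per kilobase of merged exon. In H1299 shHDAC2 cells RFX5 stood highest at 18.8 CPM per kilobase, followed by RFXAP at 2.85, HLA-DMA at 1.58 and HLA-DRA at 1.46. CD74 followed at 0.676, HLA-DRB1 at 0.528, HLA-DMB at 0.461, HLA-DPA1 at 0.339 and CIITA at 0.0913. In H1299 scramble cells HLA-DRA was at 0.0422 and CD74 at 0.0867 CPM per kilobase, below HLA-DMA at 1.51, HLA-DMB at 0.539 and HLA-DPA1 at 0.411. The HLA-DM genes and HLA-DPA1 were thus detected in H1299 without the knockdown, while the HLA-DR pair and CD74 were close to absent. In every group RFX5 was the most abundant member, and CIITA was below 0.1 CPM per kilobase, a figure lowered by its 22553 merged exon bases.

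The remaining class II chains were mostly absent. Of 7 such genes, none passed the filter on low counts in H1299 and 1 passed it in PANC-1. The gene that passed was HLA-DQB1, the beta chain of HLA-DQ, with 6, 3 and 0 counts in PANC-1 shFOSL1 libraries, against 38, 39 and 26 in PANC-1 scramble libraries. It fell by 3.35 on the log2 scale (edgeR adjusted p = 6.6e-06), with groups far apart, and passed the filter only through the scramble libraries, where it was higher. In H1299 it had 8, 6 and 10 counts in shHDAC2 libraries, against 8, 9 and 14 in scramble libraries. Its partner HLA-DQA1 had no more than 3 counts in any library. HLA-DMB, the beta chain of HLA-DM, was also called lower in PANC-1 and likewise passed the filter through the scramble libraries, where it was higher. Neither HLA-DQB1 nor HLA-DMB had over 42 counts in any PANC-1 scramble library.

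Among the factors that bind class II promoters beside RFX5 and RFXAP, 3 of 6 rose in PANC-1 with FOSL1 knockdown and 3 did not pass, where 23.8% of all genes tested were called higher. These were RFXANK, the remaining RFX subunit (log2 fold change 0.39), NFYC, a subunit of NF-Y (0.41), and CREB1, which binds the X2 box (0.43). The median of the list was 0.28, against −0.02 over all genes tested. In H1299, 1 of 6 rose, the NF-Y subunit NFYA (0.37), beside 10.3% of the 16465 genes tested that were called higher and 12.1% called lower. Of the 7 coactivators that CIITA works with, 5 rose in PANC-1 (23.8% of all genes tested), led by the acetyltransferases EP300 (0.63) and CREBBP (0.43) and by ZXDC (0.31), which binds CIITA. In H1299 none of the 7 rose, and SMARCA4, a chromatin remodeller, was called lower by a small margin (−0.23). The call of SMARCA4 was lost under RLE scaling (adjusted p = 0.0507), with every gene of at least 1 count kept (0.0904), without scramble replicate 3 (adjusted p = 0.261), without shHDAC2 replicate 1 (0.104), 2 (0.15) or 3 (0.127), and by DESeq2 (0.0807).

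Of 12 repressors of class II genes or CIITA, 3 rose and 1 fell in H1299. The one that fell was HDAC2 itself (−1.26), the target of the hairpin. Among all genes tested in H1299, 10.3% were called higher and 12.1% lower. PRDM1, which represses CIITA in plasma cells, rose by 0.70 on the log2 scale, EZH2, a histone methyltransferase, by 0.26, and HDAC1, the closest relative of HDAC2, by 0.17. The call of HDAC1 was lost without any shHDAC2 library or without scramble replicate 3 (adjusted p = 0.0577 to 0.148), and that of PRDM1 without shHDAC2 replicate 1 (adjusted p = 0.0569) or scramble replicate 2 (adjusted p = 0.051). In PANC-1, SIN3B, a scaffold for deacetylases, rose by 0.42, while the DNA methyltransferase DNMT3B fell by 0.95, and 8 of the 11 repressors tested did not pass. Among all genes tested in PANC-1, 23.8% were called higher and 27.1% lower.

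The pathway by which interferon gamma induces CIITA was followed next. In PANC-1, 6 of its 10 tested genes fell and 2 rose with FOSL1 knockdown (median −0.44), where 27.1% of all genes tested were called lower and 23.8% higher. SOCS1, a feedback inhibitor, fell by 1.35 and JAK2, a receptor kinase, by 0.58, whereas the receptor chain IFNGR1 rose by 1.04 and the phosphatase PTPN2 by 0.41. The call of JAK2 was lost without scramble replicate 2 (adjusted p = 0.0908) or 3 (adjusted p = 0.0647). In H1299, IFNGR1 rose by 0.49, and 8 of the 10 tested genes did not pass (median −0.05). Among all genes tested in H1299, 10.3% were called higher and 12.1% lower. IFNG itself had no more than 2 counts in any library. Of 13 interferon gamma target genes, 5 were testable in PANC-1, where ICAM1, an adhesion molecule, rose by 0.91. In H1299, 6 were testable and 3 fell, GBP2, an interferon-induced GTPase, by 0.59, ICAM1 by 0.34 and the tryptophanyl-tRNA synthetase WARS1 by 0.28. WARS1 lost its call without shHDAC2 replicate 1 (adjusted p = 0.0512).

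Most tested type I interferon target genes and class I genes fell in H1299 shHDAC2 cells, where 12.1% of all genes tested were called lower. Of 13 type I target genes tested, 11 fell, none rose and 2, IRF9 and STAT2, did not pass (median −1.14, against −0.005 over all genes tested). Of those that fell, OAS1 and OAS2 passed the filter only through the scramble libraries. IFIT3 fell by 1.53, IFIT2 by 1.42 and ISG15 by 1.37, all of them antiviral effectors. In PANC-1, 4 of 13 rose and 4 fell (23.8% and 27.1% of all genes tested), IFIT3 being higher by 1.85, IFIT2 by 1.71 and IFIT1 by 0.48, and OAS3, IRF9 and STAT2 lower (−0.62, −0.55 and −0.32). IRF9 lost its call without shFOSL1 replicate 1 (adjusted p = 0.0875) or 3 (adjusted p = 0.0948) or scramble replicate 2 (adjusted p = 0.276). Of 13 genes of class I presentation, 10 fell in H1299, none rose and 3 did not pass (median −0.39), led by NLRC5, the class I counterpart of CIITA (−0.71), HLA-B (−0.51) and the immunoproteasome subunit PSMB8 (−0.44), whose call was lost without shHDAC2 replicate 3 (adjusted p = 0.0527). In PANC-1, 9 of 13 fell (median −0.32, with 27.1% of all genes tested called lower), led by HLA-F (−1.25), HLA-B (−0.93) and HLA-C (−0.56), while NLRC5 was called higher (0.62). That call of NLRC5 was lost without shFOSL1 replicate 1 (adjusted p = 0.0705) or 3 (adjusted p = 0.129) and without scramble replicate 2 (adjusted p = 0.051) or 3 (adjusted p = 0.211).

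Enzymes that trim CD74 and load or recycle class II molecules were also measured. In H1299, 5 of 11 tested genes fell, none rose and 6 did not pass (12.1% of all genes tested were called lower), with CTSD (−0.84), CTSF (−0.50) and LGMN (−0.45), all endosomal proteases, in front. CTSS, the cathepsin that makes the last cut in CD74 in antigen-presenting cells, had 10, 7 and 5 counts in shHDAC2 libraries, against 14, 13 and 17 in scramble libraries, and did not pass the test. In PANC-1, 5 of 11 fell, 3 rose and 3 did not pass (27.1% of all genes tested were called lower and 23.8% higher). Those that fell were led by CTSL (−0.77), the ubiquitin ligase MARCHF1, which takes class II molecules off the surface (−0.74), and LGMN (−0.54). CTSD rose by 0.47, the CD74-cleaving protease SPPL2A by 0.44 and CTSB by 0.17. CTSB lost its call without shFOSL1 replicate 3 (adjusted p = 0.0614). IFI30, the thiol reductase of the loading compartment, had at most 5 counts in any library.

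CD74 also serves at the surface as the receptor of the cytokine MIF, with CD44, CXCR2 and CXCR4 as partners. CXCR4 had 14, 19 and 23 counts in PANC-1 shFOSL1 libraries, against 99, 102 and 117 in PANC-1 scramble libraries, and fell by 2.38 on the log2 scale (edgeR adjusted p = 4.82e-09) with groups far apart. Of the 5 genes of this list only 2 could be tested in each line. CXCR4 was the one that passed in PANC-1, and neither passed in H1299. CD44 did not pass the test in either line, at 1356 ± 52.5 CPM in PANC-1 shFOSL1 cells and 1252 ± 25.98 CPM in PANC-1 scramble cells (SD, n = 3 each). MIF had 2 to 12 counts per library. As exons of other genes overlap 94.1% of its bases, its counts here give no measure of its level.

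**Figure D4:**
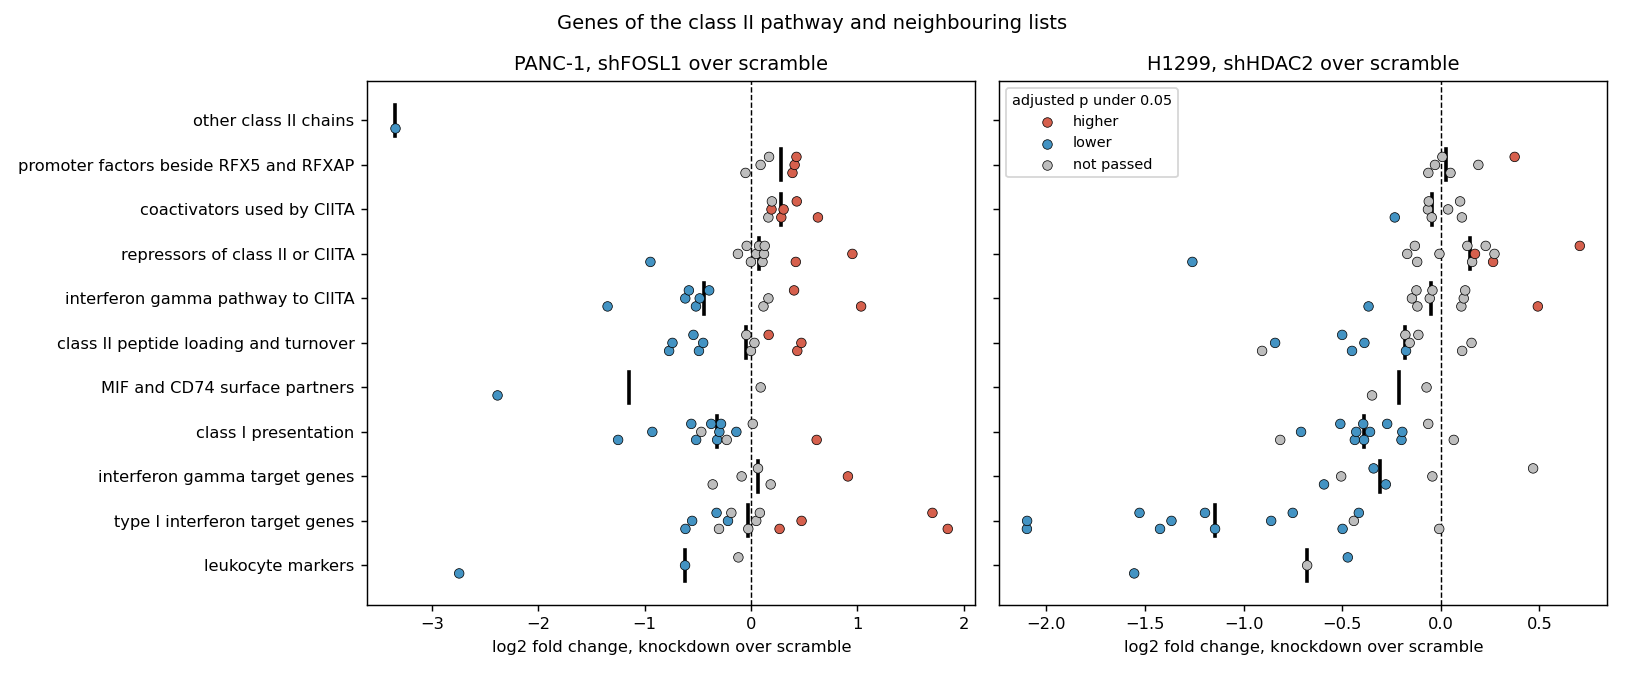
Log2 fold change of knockdown over scramble for every tested gene of 11 lists in PANC-1 (left) and H1299 (right); colour gives the edgeR call at an adjusted p under 0.05 and black bars the list medians. In H1299 the type I interferon target genes have a median of −1.14 and the class I genes one of −0.39, and the only tested gene among the other class II chains, HLA-DQB1 in PANC-1, lies at −3.35.

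Markers of blood cells, which carry class II molecules, were measured beside these results. Of 12 leukocyte markers, 3 were testable in each line, 2 fell and none rose in either. Among all genes tested, 12.1% were called lower and 10.3% higher in H1299, and 27.1% lower and 23.8% higher in PANC-1. The summed level of the 12 markers ranged from 9.90 to 10.5 CPM in H1299 shHDAC2 libraries and from 14.8 to 16 CPM in H1299 scramble libraries. Most of this sum was ITGAM, at a mean of 7.89 CPM in shHDAC2 cells and 10.9 CPM in scramble cells. The part of blood cells in the class II values was not tested. PTPRC, which encodes the pan-leukocyte protein CD45, had no count in shHDAC2 libraries and 1, 3 and 0 in scramble libraries. The B cell gene MS4A1 and the dendritic cell gene CD1C had no count in any library. The markers that fell in H1299 were the integrins ITGAX (−1.56) and ITGAM (−0.47). In PANC-1 the summed level ranged from 2.77 to 4.70 CPM in shFOSL1 libraries and from 6.40 to 7.20 CPM in scramble libraries. ITGAX (−2.75), which passed the filter only through scramble libraries, and CD14 (−0.62) fell there, but CD14 lost its call without scramble replicate 1 (adjusted p = 0.0751) or 3 (adjusted p = 0.0704) or shFOSL1 replicate 2 (adjusted p = 0.064) or 3 (adjusted p = 0.067).

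Among 12 markers of line identity, epithelial keratins moved with both knockdowns. In H1299, 3 of 6 tested markers fell, KRT8 (−0.76), KRT7 (−0.71) and KRT18 (−0.62), and none rose. Of all genes tested there, 12.1% were called lower and 10.3% higher. KRT7 lost its call there without shHDAC2 replicate 3 (adjusted p = 0.0749). In PANC-1, 4 of 8 fell, led by KRT7 (−0.88), KRT8 (−0.83) and KRT18 (−0.55), and the mesenchymal filament VIM (0.23) and the keratin KRT19 (0.22) rose. Among all genes tested in PANC-1, 27.1% were called lower and 23.8% higher. The part of these marker shifts in the class II values was not tested.

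Genes with a profile most like those of HLA-DRA and CD74 were sought among 15194 genes by the root mean squared difference of centred log2(CPM + 0.5) over the 12 libraries. For HLA-DRA these were CDK15 (0.464), IFI27 (0.532) and ADCY10P1 (0.539). IFI27, an interferon-inducible gene, had 2.75 CPM in H1299 shHDAC2 cells and 1.45 CPM in H1299 scramble cells. For CD74 they were NPTN-IT1 (0.550), ZNF813 (0.551) and FOS (0.581), the last a relative of FOSL1 and, like it, an AP-1 subunit. FOS had 37.4 CPM in PANC-1 shFOSL1 cells and 55.3 CPM in PANC-1 scramble cells, and 41.4 CPM in H1299 shHDAC2 cells and 29.2 CPM in H1299 scramble cells. None of these genes came within a difference of 0.4, so the likeness is loose.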

How the data were processed

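RNA-seq was available for 12 libraries in 4 groups of 3. The authors deposited raw counts per gene. The submitters' processing notes name cutadapt, FastQC, STAR 2.7.2b, featureCounts 2.0.1 and GRCh38; the annotation release and strand setting are not given in the sources used here, and reads shared by overlapping genes or near-identical copies may be lost or split. From these counts, edgeR 4.0.16 (R 4.3.3; TMM scaling, filterByExpr, quasi-likelihood test, Benjamini-Hochberg adjustment over all genes, adjusted p under 0.05) was run within each line on 6 libraries. DESeq2 1.42.0 served as an alternative, beside other scalings, filters, a replicate block, a fit on 12 libraries and each library left out. Total counts of 16065723 to 19173421 limit precision for genes with few counts. With 3 against 3 libraries an exact two-sided permutation test cannot go below p = 0.1, so none is given.

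The members and the 12 lists (126 genes) were chosen with earlier results of these data known. All members are named, and up to 3 genes per list and direction with the largest change at a mean of at least 1 CPM; HLA-DQB1 in H1299, HLA-DRB5, HLA-DQA1, DEXI, CTSS, CD44, MIF, IFI30, IFNG, PTPRC, MS4A1 and CD1C were added after their values were seen. Ratios carry exact 95% counting intervals. Exon overlap and positions came from GENCODE 44, which holds 60340 of the 60668 gene identifiers. Code was tested on simulated data. Some genes of the lists that the naming rule would give are not reported here.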

Additional observations from a re-analysis of the deposited data

How the results depend on the processing

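In PANC-1, 4 members were called; RLE scaling, DESeq2, the replicate block and the fit on 12 libraries each also gave 4, keeping every gene with at least 1 count gave 5, and asking for 10 counts in every library gave 3. Leaving out each library gave 2 to 5, the lowest without shFOSL1 replicate 3. In H1299, 4 members were higher without overlap, and leaving out each library gave 4 to 5. With 10 counts asked for in every library it was 1, since that filter drops genes low in scramble cells. Genes called numbered 8312 in PANC-1 (7135 to 9118 with a library left out) and 3695 in H1299 (2376 to 4067, the lowest without shHDAC2 replicate 3), and list genes called 56 (47 to 62) and 42 (30 to 43). The log2 fold change of HLA-DRA in H1299 was 4.92 and 5.72 without scramble replicate 3. Replicate numbers did not pair the libraries, as same-numbered libraries correlated at −0.0125 to 0.0112 in PANC-1 and −0.0588 to 0.0435 in H1299. A replicate block gave 8404 genes in PANC-1 and 3666 in H1299 and changed no member call. Among the named list genes, 35 of 767 settings lost a call and none reversed. Besides the losses given with each gene above, ITGAM and PRDM1 missed the threshold in the fit on 12 libraries (adjusted p = 0.0549 and 0.0519), and NLRC5, IRF9 and CD14 in PANC-1 by DESeq2 (0.0676, 0.0696 and 0.0561). Where edgeR called no tested gene of a list in a direction, the count was also 0 at an unadjusted p under 0.05 and by DESeq2. Depth limits HLA-DRA, HLA-DRB1 and the HLA-DP genes in PANC-1, which had 0 to 16 counts per library.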

Other observations

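The neighbours of HLA-DRA, CD74 and CIITA on their chromosomes were looked up after the data had been seen. They were the 3 nearest tested genes on each side that were not members. They lay 1.33 to 399 kb away, those of HLA-DRA no nearer than 32.1 kb. HLA-DRB1, a member nearer to HLA-DRA than the genes used on that side, was higher in H1299 shHDAC2 cells (ratio 4.78) and is not counted. In H1299 shHDAC2 cells, 1 of the 6 neighbours of HLA-DRA fell, PSMB8, while 5 did not pass the edgeR test. Of the 6 neighbours of CD74, 1 rose and 3 fell. The 6 neighbours of CIITA had edgeR adjusted p-values between 0.0871 (EMP2, log2 fold change −0.26) and 0.926. In PANC-1 shFOSL1 cells, 2 neighbours of HLA-DRA, 4 of CD74 and 4 of CIITA fell, and 1 each of CD74 and CIITA rose. Of the 2 neighbours of HLA-DRA that fell, HLA-DQB1 is itself a class II gene and passed the filter only through the scramble libraries. Of all genes tested, 27.1% were called lower and 23.8% higher in PANC-1, and 12.1% lower and 10.3% higher in H1299.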
